A study of Mus musculus with 8 samples.

Results

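The Hox genes were described here by cluster and by position within the cluster. The set holds 38 genes, taken by Entrez identifier from the 36528 identifiers that each library lists: 10 in cluster A, 10 in cluster B, 9 in cluster C and 9 in cluster D. The RNA came from primary mesothelial cells of mouse omentum; such cells form the lining of the abdominal cavity. It was sequenced in 4 WT and 4 BAP1 KO libraries, and genotype was the only factor in the labels. BAP1 is a deubiquitinase that removes ubiquitin from histone H2A, a mark placed by a Polycomb complex. The labels do not say how the knockout was made, which exons it removed, the strain, sex or age of the mice, or whether replicate libraries were made from different animals or cultures. All p-values therefore rest on the spread between the libraries at hand, and that spread may be technical.

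Hox genes encode transcription factors that give cells their position along the head-to-tail axis of the body. They lie in 4 clusters that arose by duplication, so each gene has paralogs of the same number in the other clusters, and low numbers are used towards the head and high numbers towards the tail. Each protein binds DNA through a homeodomain, encoded by a stretch called the homeobox, and many do so together with PBX and MEIS cofactors. Polycomb complexes hold Hox genes silent outside their domain, Trithorax complexes such as those of KMT2A keep them active, and retinoic acid is a classic inducer of the low-numbered genes. Adult connective and lining cells keep a Hox pattern that reflects the place in the body they came from.

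Total counts were 67.1 to 84.9 M per library. Bap1 itself stood at 63.1, 62.6, 62.9 and 64.2 CPM (counts per 1 M of the scaled library total) in WT replicates 1 to 4 and at 54.0, 53.1, 52.0 and 53.7 CPM in BAP1 KO. The BAP1 KO libraries thus kept 84.2% of the WT level of the targeted transcript (log2 fold change -0.25 ± 0.03 SE, edgeR adjusted p 2.1e-09), and since the count covers the whole gene, it does not show how much of the deleted part remained. Markers of the labelled cell type were present, with Upk3b at means of 462 CPM (WT) and 464 CPM (BAP1 KO), but Calb2 had 0 to 2 counts in every library. Among the low ones Msln, Krt18 and Krt8 fell by 1.19, 1.38 and 1.56 on the log2 scale, and Muc16 rose by 0.93. Markers of certain other cells were abundant too, and some moved with genotype. The summed level of 7 macrophage markers ranged from 11032 to 11318 CPM over the WT libraries and from 13388 to 13884 CPM over the BAP1 KO libraries (4 rose, 3 fell), mostly through Lyz2. Without Lyz2 the other 6 summed to 2764 to 2808 CPM and 2681 to 2731 CPM, and Cd14, Itgam and Ptprc fell. For 7 fibroblast markers, all of which fell, it ranged from 15553 to 16672 CPM and from 12703 to 13202 CPM, and for 12 mesothelial markers (3 rose, 5 fell) from 1371 to 1397 CPM and from 1403 to 1420 CPM. By edgeR adjusted p below 0.05, 29.0% of all genes tested rose and 32.1% fell. Of 5 endothelial markers, 4 fell and 0 rose. Their sum was 28.8 to 29.7 CPM in WT and 18.4 to 19.5 CPM in BAP1 KO. Of 4 smooth muscle markers, 2 rose and 1 fell, and their sum was 8495 to 8915 CPM and 8724 to 8841 CPM. All 3 tested adipocyte markers rose. Of tested lymphocyte, neuron and epithelial markers, 2 of 3 rose, 2 of 2 rose and 1 of 1 fell. The part of these cell types in the Hox results was not tested. In bulk RNA, fewer cells of a type and less RNA per cell cannot be told apart.

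The homeoboxes of 2 pairs, from the fourth and the sixth paralog group, show how alike members are whose RNA moved differently below. They were found in the GENCODE vM21 transcripts of GRCm38 and are printed 5′ to 3′ on the coding strand, 180 bases each. Capitals mark each base at which the members of the whole paralog group, of which a pair is shown, are not all the same.

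Hoxa4: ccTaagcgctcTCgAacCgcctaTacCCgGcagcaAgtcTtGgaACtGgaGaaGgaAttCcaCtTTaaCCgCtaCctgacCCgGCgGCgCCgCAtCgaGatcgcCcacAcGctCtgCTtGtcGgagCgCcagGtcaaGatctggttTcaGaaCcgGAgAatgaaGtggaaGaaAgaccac
Hoxc4: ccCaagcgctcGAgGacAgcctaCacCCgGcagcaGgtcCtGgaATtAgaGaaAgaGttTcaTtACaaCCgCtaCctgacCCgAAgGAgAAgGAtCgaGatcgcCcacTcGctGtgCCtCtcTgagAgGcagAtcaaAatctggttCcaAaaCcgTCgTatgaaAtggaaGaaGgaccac
Hoxb6: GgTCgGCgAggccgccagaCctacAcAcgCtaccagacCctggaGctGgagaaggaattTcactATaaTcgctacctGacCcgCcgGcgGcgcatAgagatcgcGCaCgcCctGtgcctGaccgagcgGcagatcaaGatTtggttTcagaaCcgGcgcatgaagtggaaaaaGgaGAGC
Hoxc6: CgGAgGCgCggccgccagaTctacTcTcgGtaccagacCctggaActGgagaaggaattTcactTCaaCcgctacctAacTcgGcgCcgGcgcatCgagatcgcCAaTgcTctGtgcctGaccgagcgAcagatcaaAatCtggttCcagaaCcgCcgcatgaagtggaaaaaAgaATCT

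Hoxc4 shared 78.9% of these bases with Hoxa4, and Hoxc6 shared 82.8% with Hoxb6. The longest stretch identical between 2 homeoboxes of the same number was 47 bases, between Hoxb3 and Hoxd3, which is shorter than the 50-base reads. Over whole transcripts, at most 1.44% of the 50-base windows of any member occurred in a gene elsewhere (Hoxc9), so reads of paralogs could be told apart in nearly all positions.

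Of the 38 Hox genes, 23 had enough counts to be tested and 15 did not. In BAP1 KO, 10 of the 23 rose, 7 fell and 6 did not pass (edgeR quasi-likelihood test, adjusted p below 0.05). Across all 16929 genes tested, 61.1% passed in either direction, 29.0% higher and 32.1% lower, so the count of Hox genes that moved has to be read against a transcriptome in which most genes did. With a change of at least 1.5-fold also required, 1 Hox gene was higher, Hoxb9, and 6 were lower, where the shares of all genes were 4.49% higher and 10.3% lower. The median log2 fold change of the tested Hox genes was 0.02 and that of all tested genes 0.00. Without regard to sign, the medians were 0.35 for the Hox genes and 0.18 for all genes. The 4 WT and 4 BAP1 KO values did not overlap for 14 of the 23 tested Hox genes, beside 53.8% of all genes tested. Of these 14, 8 were higher and 6 lower in BAP1 KO, beside 25.1% higher and 28.7% lower without overlap among all genes tested.

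**Figure D1:**
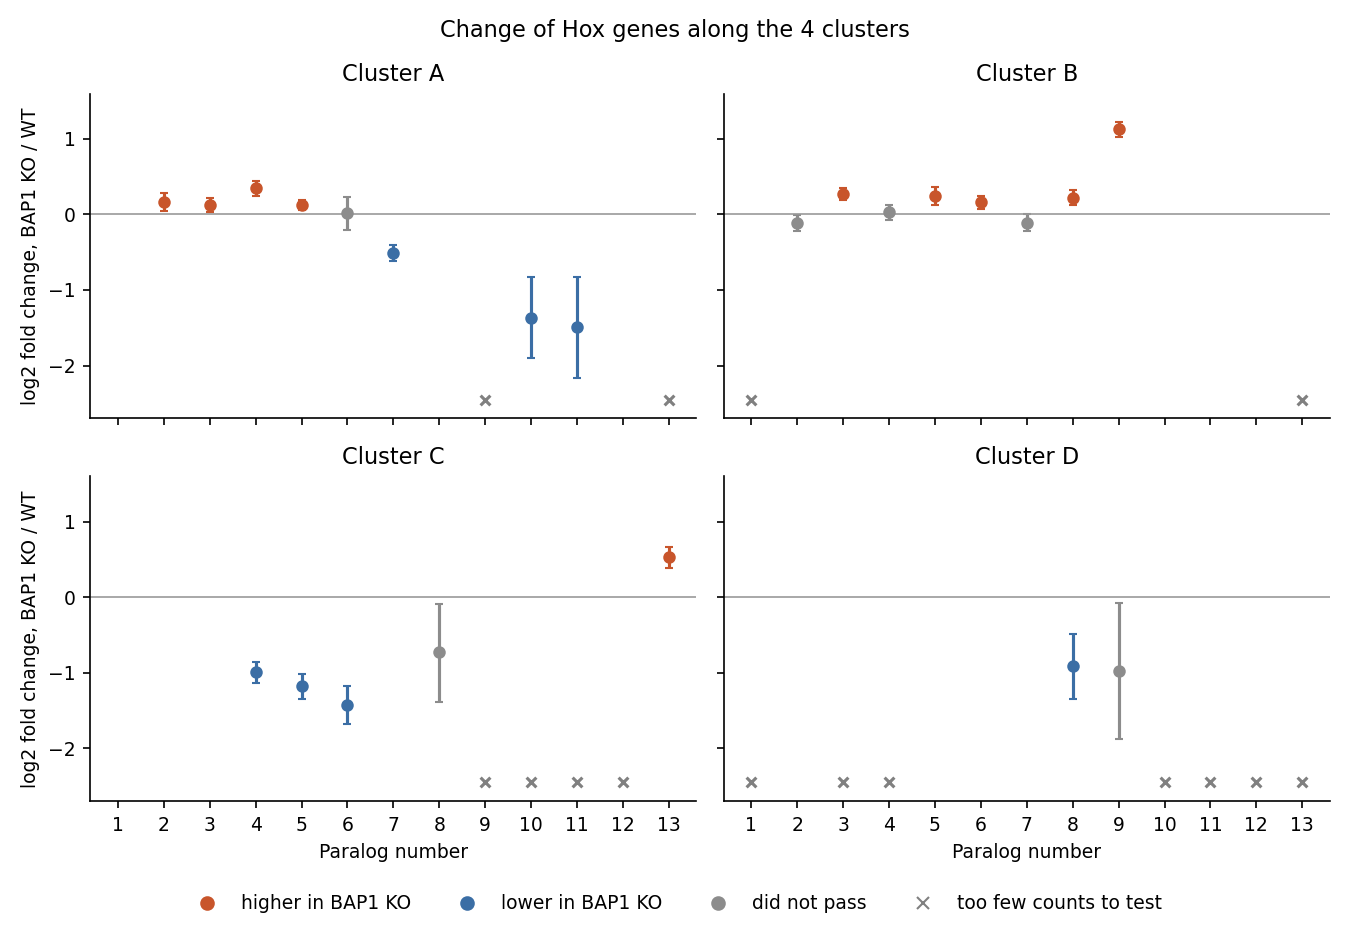
Log2 fold change (BAP1 KO minus WT) of the 23 tested Hox genes, ordered by cluster and paralog number; bars are 95% intervals from the standard error. Hoxb9 lies highest at 1.13, and Hoxc4, Hoxc5 and Hoxc6 lie together between -0.99 and -1.42.

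By cluster, the tested genes split differently. In cluster A, 4 of 8 rose and 3 fell, with a median log2 fold change of 0.07. In cluster B, 5 of 8 rose and 0 fell in edgeR, where 1 was lower at an unadjusted p below 0.05 and 0 fell in DESeq2 or limma-voom. The median in cluster B was 0.19. In cluster C, 1 of 5 rose and 3 fell, with a median of -0.99, and in cluster D 1 of 2 fell and 0 rose by edgeR (0 at an unadjusted p below 0.05), DESeq2 or limma-voom. By position, paralogs 1 to 3 gave 3 rises and 0 falls among 4 tested genes (1 lower at an unadjusted p below 0.05, 0 lower in DESeq2 or limma-voom). Paralogs 4 to 8 gave 5 rises and 5 falls among 14, and paralogs 9 to 13 gave 2 rises and 2 falls among 5. Whether these splits differ between clusters or positions was not tested.

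To compare levels between genes, the deposited RPKM, which are per length of transcript, were used. Cluster A supplied most of the Hox RNA. Its 10 genes summed to 52.4, 56.7, 56.1 and 55.1 RPKM in the WT libraries and to 62.1, 60.9, 59.6 and 61.8 RPKM in the BAP1 KO libraries, so every BAP1 KO library lay above every WT library. Cluster B summed to 36.9 ± 0.75 RPKM (SD, n = 4) in WT and 43.1 ± 1.19 RPKM in BAP1 KO, also without overlap. Cluster C went the other way, with 5.86 ± 0.38 RPKM in WT and 4.77 ± 0.11 RPKM in BAP1 KO and no overlap. Cluster D was close to silent, at 0.494 ± 0.045 RPKM in WT and 0.269 ± 0.089 RPKM in BAP1 KO. Clusters A and B made up 56.0% and 37.5% of the summed Hox level in WT and 55.9% and 39.5% in BAP1 KO, while the share of cluster C was 6.0% in WT and 4.4% in BAP1 KO.

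Hoxa5, a regulator of lung and axial patterning, had the highest level of any Hox gene in both genotypes, at 30.3 ± 1.54 RPKM in WT, or 30.8% of the summed Hox level. Hoxa3 (8.75 RPKM), Hoxb6 (8.55 RPKM) and Hoxa4 (8.03 RPKM) followed, and neighbours in that order overlapped between WT libraries. The level of Hoxa3 depends on the gene model: with GENCODE exon lengths it was 3.75 RPKM and rank 10 in WT, while Hoxb3, at 2.45 RPKM and rank 12, became 4.39 RPKM and rank 8. By the deposited RPKM, Hoxb2 stood at 6.50, apart from the genes on either side. Hoxb7, Hoxb8, Hoxb4 and Hoxa2, at 4.55, 4.35, 4.18 and 3.86 RPKM, formed a run in which each overlapped the next. This order also depends on the gene model. With GENCODE exon lengths Hoxb7 was at 6.71 RPKM (rank 4 in WT), above Hoxb2 at 4.99 RPKM (rank 5). Hoxb8 and Hoxb4 then followed at 4.70 and 4.66 RPKM. Hoxb9 was rank 10 in WT, at 3.21 ± 0.14 RPKM, and rank 5 in BAP1 KO, at 7.07 ± 0.32 RPKM. Hoxc5 stood at 2.05 RPKM in WT, within the WT spread of Hoxc13 at 2.01 RPKM (1.835 and 2.291 with GENCODE exon lengths). In BAP1 KO the pair parted, to 0.916 RPKM for Hoxc5 and 2.93 RPKM for Hoxc13.

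**Figure D2:**
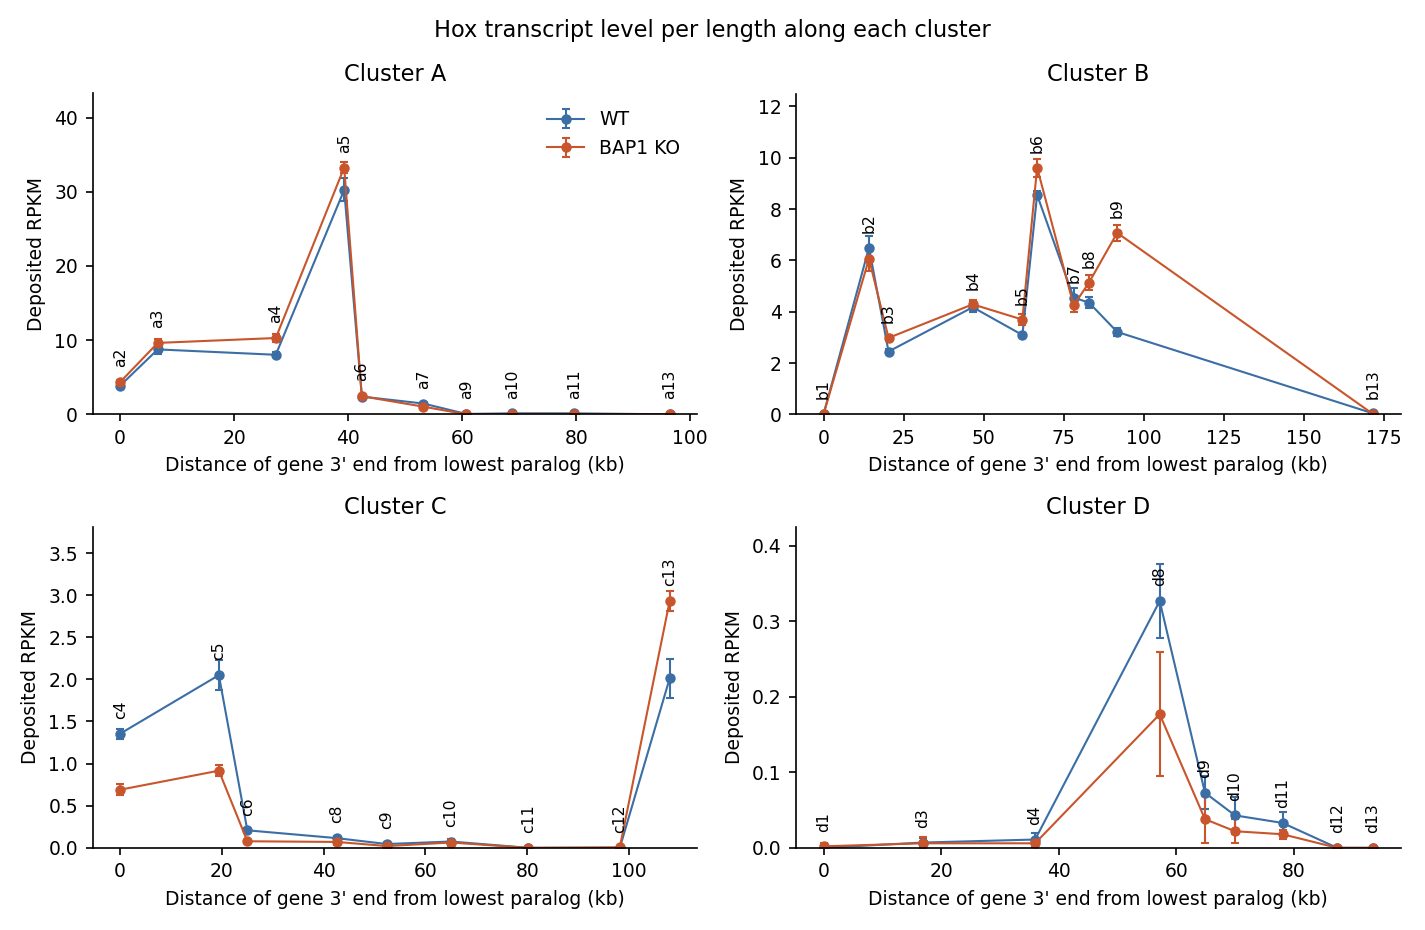
Mean deposited RPKM (± SD, n = 4) of each Hox gene along its cluster, from low to high paralog number, in WT and BAP1 KO. Levels are highest in the low and middle paralogs of clusters A and B, with Hoxa5 at 30.3 RPKM in WT, and near 0 over most of cluster D.

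In cluster A (chromosome 6, 52162417 to 52260880, GRCm38) Hoxa2 to Hoxa5 were higher in BAP1 KO, and Hoxa7, Hoxa10 and Hoxa11 were lower. Hoxa2 (52162417 to 52164831), which patterns the hindbrain and the second pharyngeal arch, stood at 7.19, 7.17, 6.71 and 6.72 CPM in WT and 7.13, 8.20, 8.16 and 7.53 CPM in BAP1 KO. The first BAP1 KO library lay among the WT values, and the small rise, by 0.16 ± 0.06 on the log2 scale (edgeR adjusted p 0.021), did not pass without WT replicate 3 or 4 or BAP1 KO replicate 2 or 3, with an adjusted p of up to 0.078. Hoxa3 (52169059 to 52213067), needed for thymus and parathyroid formation, stood at 20.4, 23.2, 22 and 24.6 CPM in WT and 23.7, 23.6, 24.2 and 26.8 CPM in BAP1 KO. The genotypes overlapped through WT replicate 4, and the rise of 0.12 ± 0.05 (edgeR adjusted p 0.031) did not pass without WT replicate 1 or 3 or BAP1 KO replicate 4, with an adjusted p of up to 0.15. Hoxa3 shares 27.1% of its exon bases with other genes in GENCODE, so its reads may in part belong to them.

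Hoxa4 (52189682 to 52191703) had the largest rise in cluster A. It measured 12.6, 12.3, 13.1 and 11.7 CPM in WT and 16.3, 16.2, 14.7 and 15.9 CPM in BAP1 KO. All 4 BAP1 KO libraries lay above all WT libraries, and the gene rose by 0.35 ± 0.05 on the log2 scale (edgeR adjusted p 1.8e-07, 95% interval 0.25 to 0.44), or 127.1% of WT. Hoxa5 (52201754 to 52204587) measured 53.4, 60, 59.3 and 57.4 CPM in WT and 64.4, 62.4, 61.1 and 63.0 CPM in BAP1 KO. It too was higher in every BAP1 KO library, by 0.12 ± 0.03 (edgeR adjusted p 0.0012). Hoxa6 (52204858 to 52208672) measured 1.72, 1.76, 1.64 and 1.65 CPM in WT and 1.89, 1.71, 1.72 and 1.54 CPM in BAP1 KO. The genotypes overlapped, the difference was 0.02 ± 0.11 (edgeR adjusted p 0.9), and its 95% interval ran from -0.2 to 0.23.

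From Hoxa7 on, the direction changed. Hoxa7 (52215623 to 52218573) measured 8.31, 8.60, 8.69 and 7.90 CPM in WT and 5.78, 5.67, 6.04 and 6.05 CPM in BAP1 KO. Every BAP1 KO library lay below every WT library, and the level fell by 0.51 on the log2 scale (SE 0.06, edgeR adjusted p 6e-09), to 70.3% of WT. An antisense transcript, Hoxaas3, covers 586 bases of its exons, and without strand information reads of either cannot be told apart. Hoxa10, a gene of limb, kidney and uterine patterning, had few reads, 22 to 43 counts in WT and 11 to 15 in BAP1 KO, and its CPM fell by 1.37 (SE 0.27, edgeR adjusted p 6.2e-05). Hoxa11, which acts in the forearm and the uterus, had 15 to 30 counts in WT and 4 to 12 in BAP1 KO and fell by 1.49 (SE 0.34, edgeR adjusted p 0.00034). For neither gene did the CPM of the genotypes overlap. Hoxa9 was not tested, with 9, 15, 8 and 22 counts in WT and 2, 4, 6 and 1 in BAP1 KO. It passed as lower where no filter on low counts was used (log2 fold change -2.01, edgeR adjusted p 0.00035). Hoxa13 had at most 1 count in any library.

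**Figure D3:**
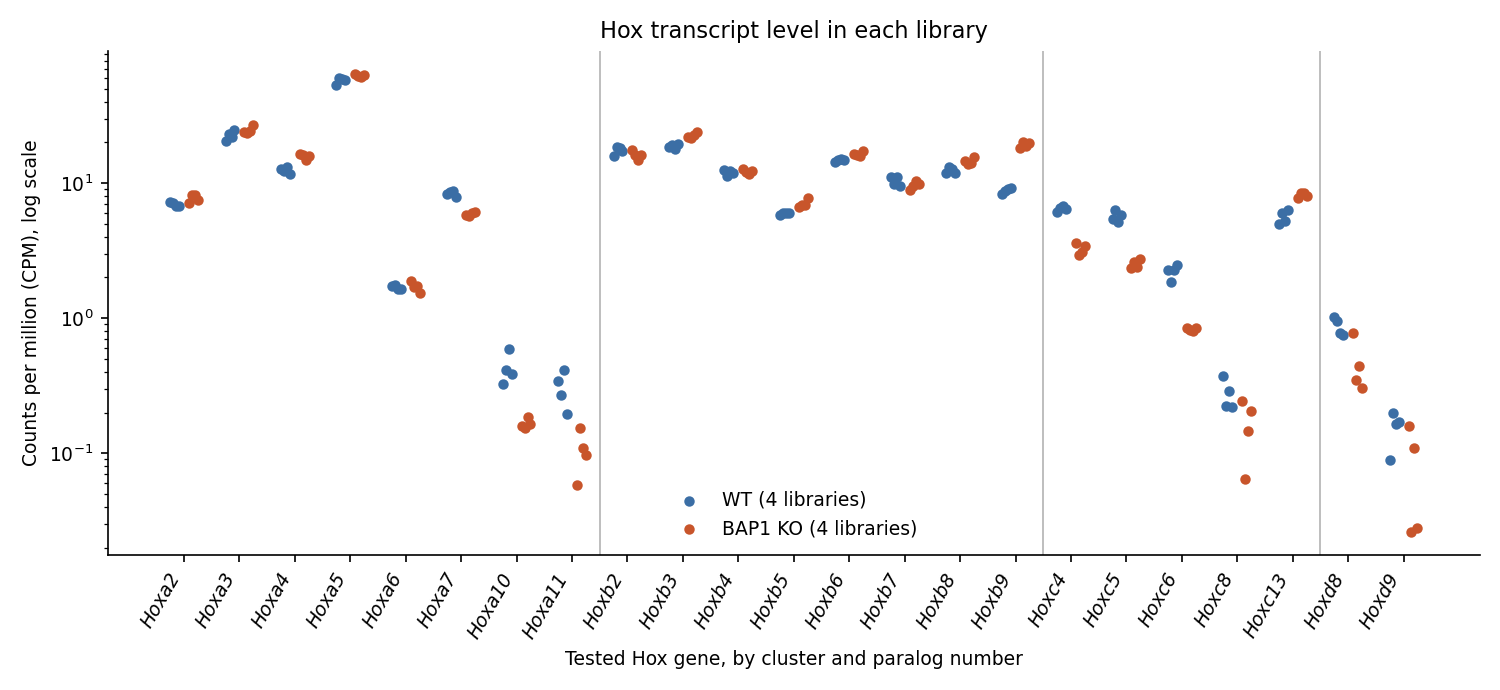
CPM of the tested Hox genes in each of the 4 WT and 4 BAP1 KO libraries, on a log axis, ordered by cluster and paralog number. Points of a genotype lie close together for the well-expressed genes and spread more for Hoxc8, Hoxd8 and Hoxd9, which have few counts.

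Cluster B (chromosome 11, 96194316 to 96368254) was higher in BAP1 KO at 5 of its 8 tested genes. Hoxb2 (96351632 to 96354020), a hindbrain gene, measured 15.8, 18.5, 18.1 and 17.2 CPM in WT and 17.6, 16.1, 14.7 and 16.1 CPM in BAP1 KO. The genotypes overlapped and the difference of -0.12 ± 0.05 did not pass (edgeR adjusted p 0.055). It passed without WT replicate 1 (-0.16, adjusted p 0.0085) or without BAP1 KO replicate 1 (-0.16, adjusted p 0.0083), and also with upper quartile factors, library totals alone or no filter on low counts (adjusted p 0.043, 0.03 and 0.022). Hoxb3 (96307101 to 96347930) measured 18.3, 19.2, 17.7 and 19.4 CPM in WT and 21.9, 21.7, 22.6 and 23.9 CPM in BAP1 KO. Every BAP1 KO library was higher, and the gene rose by 0.27 ± 0.04 (edgeR adjusted p 1.3e-06). Its antisense neighbour Hoxb3os covers 52.9% of the Hoxb3 exon bases and also rose, by 0.40 ± 0.11 (edgeR adjusted p 0.0018), so the reads behind either rise cannot be assigned to 1 of them. Hoxb3os also covers 27.3% of the Hoxb2 exon bases, where the same limit holds. Hoxb4 (96318267 to 96321638), known for expanding blood stem cells, measured 12.6, 11.3, 12.2 and 11.8 CPM in WT and 12.7, 12.2, 11.6 and 12.2 CPM in BAP1 KO. These values overlapped throughout, with a difference of 0.03 ± 0.05 (edgeR adjusted p 0.65) and a 95% interval of -0.07 to 0.12.

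Hoxb5 and Hoxb6, neighbours in the middle of the cluster, were both higher. Hoxb5 (96303512 to 96306121) measured 5.75, 6.02, 6.0 and 6.0 CPM in WT and 6.66, 6.92, 6.88 and 7.68 CPM in BAP1 KO. It rose by 0.24 ± 0.06 (edgeR adjusted p 0.001) without overlap, and the antisense Hoxb5os, which covers 100 bases of its exons, rose by 0.40 ± 0.06 (adjusted p 1.4e-06). Hoxb6 (96292814 to 96301569) measured 14.4, 14.7, 15 and 14.8 CPM in WT and 16.5, 16.2, 15.8 and 17.2 CPM in BAP1 KO, again without overlap, and rose by 0.16 ± 0.04 (edgeR adjusted p 0.002). Hoxb7 (96285604 to 96290163) did not follow them. It measured 11, 9.85, 11.1 and 9.44 CPM in WT and 8.81, 9.45, 10.3 and 9.78 CPM in BAP1 KO, and the difference of -0.11 ± 0.06 did not pass (edgeR adjusted p 0.11). It passed without WT replicate 4 (-0.15, adjusted p 0.027) or BAP1 KO replicate 3 (-0.15, adjusted p 0.045). Hoxb8 (96279401 to 96285325) measured 11.9, 13.2, 12.6 and 11.9 CPM in WT and 14.5, 13.9, 14 and 15.6 CPM in BAP1 KO. The genotypes did not overlap, and it rose by 0.22 ± 0.05 (edgeR adjusted p 0.00023).

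Hoxb9 (96271330 to 96276595), which acts in the thoracic skeleton and is the highest-numbered paralog with appreciable reads in cluster B, had the largest rise of any Hox gene tested. Its WT libraries held 8.31, 8.67, 8.99 and 9.18 CPM and its BAP1 KO libraries 18.1, 20.1, 18.8 and 19.8 CPM, from 562 to 737 counts in WT and 1253 to 1566 in BAP1 KO. The lowest BAP1 KO library lay far above the highest WT library. On the log2 scale Hoxb9 rose by 1.13 ± 0.05 (edgeR adjusted p 5.9e-19, 95% interval 1.03 to 1.22), or 218.4% of WT. An exact two-sided permutation test of the 8 CPM values gave p = 0.029, the smallest that 4 against 4 can give. Each of the 14 tested Hox genes without overlap has this same value. No exon of Hoxb9 overlaps another gene in GENCODE. The ratio of Hoxb9 counts to counts of the adjacent Hoxb8, which does not depend on library scaling, was 0.7, 0.659, 0.711 and 0.771 in WT and 1.246, 1.45, 1.34 and 1.27 in BAP1 KO. The genotypes lay apart in this ratio, which had to follow from the single-gene values. It restates that Hoxb9 rose by 1.13 and Hoxb8 by 0.22. Beyond Hoxb9 lies Hoxb13, which had 2 to 7 counts in WT and 0 to 2 in BAP1 KO, and at the other end Hoxb1 had 0 to 3 and 0 to 1, and neither was tested.

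In cluster C (chromosome 15, 102921131 to 103036856) the low end and the high end moved in opposite directions. Hoxc4 (103018097 to 103036856) measured 6.09, 6.52, 6.77 and 6.41 CPM in WT and 3.57, 2.91, 3.10 and 3.43 CPM in BAP1 KO. Every BAP1 KO library lay well below every WT library, and the level fell by 0.99 (SE 0.07, edgeR adjusted p 5.4e-13), to 50.5% of WT. Hoxc5 (103014008 to 103017429) measured 5.43, 6.29, 5.13 and 5.83 CPM in WT and 2.34, 2.62, 2.38 and 2.72 CPM in BAP1 KO. It fell by 1.18 (SE 0.08, edgeR adjusted p 1.3e-13), to 44.3% of WT, also with wide separation. Hoxc6 (102998226 to 103011882), a thoracic-level gene, measured 2.28, 1.84, 2.29 and 2.48 CPM in WT and 0.838, 0.822, 0.797 and 0.841 CPM in BAP1 KO. The 4 BAP1 KO libraries were nearly equal and all far below WT, and the gene fell by 1.42 (SE 0.13, edgeR adjusted p 2.7e-11), to 37.1% of WT. Hoxc4 and Hoxc6 share no exon base with another gene in GENCODE, and Hoxc5 shares 166 bases with Hoxc10 on the same strand.

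Of the 6 paralogs of these genes in clusters A and B, 4 rose and 2 (Hoxa6 and Hoxb4) did not pass. The counts of Hoxc4 relative to Hoxa4 gave ratios of 0.482, 0.531, 0.518 and 0.547 in WT and 0.219, 0.180, 0.211 and 0.216 in BAP1 KO. For Hoxc5 relative to Hoxb5, the ratios were 0.943, 1.05, 0.855 and 0.972 in WT and 0.351, 0.378, 0.346 and 0.354 in BAP1 KO. Those of Hoxc6 relative to Hoxb6 were 0.158, 0.125, 0.152 and 0.168 in WT and 0.051, 0.051, 0.050 and 0.049 in BAP1 KO. These ratios are not corrected for length and compare libraries only. In each of the 3 the genotypes lay apart, which had to follow, since both genes already lay apart in opposite directions. Against the paralogs that did not pass, Hoxc4 to Hoxb4 ran from 0.485 to 0.578 in WT and from 0.240 to 0.282 in BAP1 KO. Hoxc6 to Hoxa6 ran from 1.04 to 1.504 in WT and from 0.443 to 0.545 in BAP1 KO. These separations too had to follow from the falls of Hoxc4 and Hoxc6 and are not separate evidence.

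Of the 6 genes with the 3 largest rises and 3 largest falls at 1 CPM or more, 1 matched the RefSeq promoter table, Hoxc4, and that window is shown. It is the RefSeq sequence on GRCm38.p6 from 250 bases before to 50 bases after an annotated start, chr15:103034145-103034444, plus strand, with each CG in capitals. That start lies inside the gene as counted here (103018097 to 103036856), so the window does not describe the 5′ end of the whole gene. Hoxa4, Hoxb9, Hoxc5, Hoxc6 and Hoxc13 were the other 5.

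Hoxc4: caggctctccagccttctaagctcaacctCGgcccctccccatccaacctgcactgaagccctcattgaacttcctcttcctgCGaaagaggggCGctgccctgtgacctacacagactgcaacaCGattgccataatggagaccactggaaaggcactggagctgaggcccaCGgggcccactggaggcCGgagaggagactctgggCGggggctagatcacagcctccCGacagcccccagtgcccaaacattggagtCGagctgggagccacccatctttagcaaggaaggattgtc

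This window holds 9 CG, at percentile 54.2 of all 32851 RefSeq promoters of the same length. Over 24 such windows at 22 Hox genes the median was 14.5 CG and the range 4 to 45, where the median of all promoters was 7. At least 10 CG were found in 17 of the 24 Hox windows and in 43.5% of all promoters. CG is its own reverse complement, so both strands hold the same number. Among genes that fell, the windows of Hoxa7, Hoxa11 and Hoxd8 held 9, 15 and 6 CG and those of Hoxa10 held 12 and 21. Among genes that rose, those of Hoxa2, Hoxa3, Hoxa5 and Hoxb8 held 9, 20, 29 and 13, so both directions included low and high counts.

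Hoxc8 had 17 to 25 counts in WT and 5 to 17 in BAP1 KO, with overlapping CPM and a difference of -0.73 ± 0.33 that did not pass (edgeR adjusted p 0.055). It passed without WT replicate 2 or 4 or without BAP1 KO replicate 1 or 4, with log2 fold changes of -0.83, -0.82, -0.97 and -0.86 and adjusted p of 0.05, 0.041, 0.022 and 0.048. It also passed in limma-voom (-0.83, adjusted p 0.034) and with library totals alone (-0.75, adjusted p 0.05). Hoxc9 and Hoxc10 were not tested, at 1 to 9 and 5 to 16 counts in WT and 2 to 5 and 5 to 16 in BAP1 KO, and Hoxc11 had 0 counts in all 8 libraries. Hoxc13 (102921131 to 102928814), at the far end of the cluster and best known from hair and nail, was expressed beyond this near-silent stretch. It measured 4.94, 6.01, 5.27 and 6.33 CPM in WT and 7.70, 8.45, 8.42 and 8.02 CPM in BAP1 KO. All BAP1 KO libraries lay above all WT libraries, and it rose by 0.53 ± 0.07 (edgeR adjusted p 6.3e-08), to 144.5% of WT. Relative to Hoxc4 in the same cluster, its counts gave a ratio of 0.875 ± 0.098 (SD, n = 4) in WT and 2.53 ± 0.339 in BAP1 KO. That difference had to follow, since both genes already lay apart in opposite directions.

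**Figure D4:**
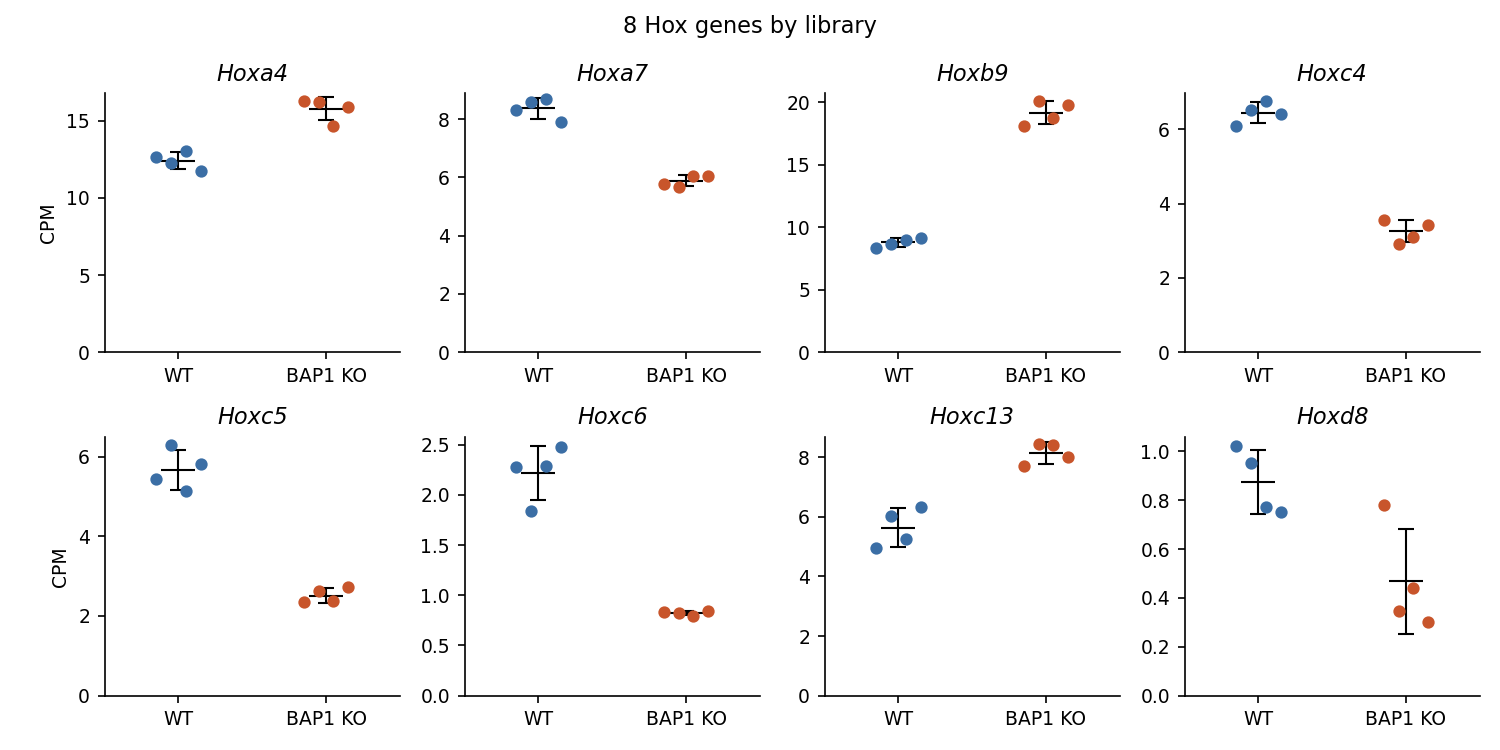
CPM in each library for 8 Hox genes, with the mean ± SD of each genotype (n = 4) on linear axes that start at 0. Hoxa4, Hoxb9 and Hoxc13 are higher and Hoxa7, Hoxc4, Hoxc5 and Hoxc6 lower in all 4 BAP1 KO libraries, while Hoxd8 overlaps between genotypes.

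Cluster D (chromosome 2, 74668225 to 74765142), used mainly in the limbs, the trunk and the genital region, was near the limit of detection. Hoxd8 (74704615 to 74707933) measured 1.02, 0.953, 0.772 and 0.753 CPM in WT and 0.780, 0.347, 0.442 and 0.303 CPM in BAP1 KO. BAP1 KO replicate 1 lay within the WT range and the other 3 below it. The gene fell by 0.91 (SE 0.22, edgeR adjusted p 0.00054), and the exact two-sided permutation test of its 8 CPM values gave p = 0.086. Hoxd9 had 6 to 17 counts in WT and 2 to 11 in BAP1 KO, and its difference of -0.97 ± 0.45 did not pass (edgeR adjusted p 0.064). It passed without WT replicate 1 (-1.15, adjusted p 0.033), without BAP1 KO replicate 1 (-1.47, adjusted p 0.014) and in limma-voom (-1.23, adjusted p 0.02). The other 7 members of cluster D were not tested. Hoxd10 and Hoxd11 had 3 to 15 and 6 to 20 counts in WT and 1 to 8 and 4 to 8 in BAP1 KO, and Hoxd12 and Hoxd13 had 0 in every library. Hoxd3 and Hoxd4 had 0 to 3 and 1 to 5 counts in WT and 0 to 4 and 0 to 2 in BAP1 KO.

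Over all 4 clusters, the 15 untested members reached at most 22 counts or 0.286 CPM in any library. Of these, 9 had a lower mean in BAP1 KO, 3 a higher mean, and 3 (Hoxc11, Hoxd12 and Hoxd13) no count at all. Among all untested genes with a count, 48.5% had a lower mean in BAP1 KO. A count of 0 allows up to 3 counts, or 0.0353 to 0.0444 CPM depending on the library, by counting error only. Hoxc12 and Hoxd1 had 0 counts in every WT library and at most 4 and 1 in a BAP1 KO library. A rise in BAP1 KO below these limits was not detectable at this depth at the genes with 0 counts.

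Genes known to work with or upstream of the Hox genes changed in both directions. Of 9 genes for the cofactors of the PBX, MEIS and PKNOX families, 3 rose, 2 fell and 4 did not pass, beside 29.0% higher and 32.1% lower among all genes, with a median log2 fold change of -0.06. Among them Meis3 fell by 0.46 (SE 0.04). Of 13 genes for Trithorax and menin proteins, 5 rose and 5 fell, and their median log2 fold change was 0.06. The methyltransferase genes Kmt2a, Kmt2d, Kmt2c and Kmt2b rose by 0.32, 0.31, 0.29 and 0.20, and Men1 and Psip1, whose products tether KMT2A to chromatin, fell by 0.20 and 0.22. None of these 22 genes changed by 1.5-fold, where 14.8% of all genes tested passed with at least that change.

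Of 22 genes for retinoid handling and other upstream regulators, 18 were tested, of which 7 rose and 4 fell. The share that passed was 61.1%, beside 61.1% of all genes tested, and the median log2 fold change was 0.00. Aldh1a2, which makes retinoic acid, fell by 0.72 (SE 0.02) from 134 to 81.3 CPM, and the receptor gene Rarb fell by 0.65 (SE 0.04). Cyp26a1, which degrades retinoic acid, rose by 1.3 ± 0.09 from 1.72 to 4.24 CPM. Crabp2, for a retinoic acid carrier, rose by 3.42 ± 0.16, and Rxra by 0.41 ± 0.02. All changes in these lists had an edgeR adjusted p below 0.05 over all genes tested.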

How the data were processed

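Polyadenylated RNA was made into TruSeq RNA v2 libraries, which do not mark strand, and sequenced as single 50-base reads, per the labels' protocols. GSNAP and GRCm38 were used, per the submitters' processing notes; for the aligner version, the annotation and the strand setting, nothing is given in the sources used here. Per the file headers, the deposited counts are uniquely aligning reads per Entrez gene, and the deposited RPKM carry a size-factor adjustment. Symbols came from RefSeq (GRCm38.p6), for 31049 of 36528 identifiers.

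Counts of all genes were tested with edgeR 4.0.16 in R 4.3.3 (quasi-likelihood F test, robust, TMM, filterByExpr by genotype, Benjamini-Hochberg adjustment over 16929 genes, threshold 0.05), and the test was run on simulated data first. CPM use TMM-adjusted totals, and log2 fold changes subtract WT from BAP1 KO. RPKM were summed per cluster without a test. Alternatives were other scalings and filters, DESeq2 1.42.0, limma-voom (limma 3.58.1) and each library left out. RPKM with GENCODE exon lengths was added after seeing the data. Overlaps and homeoboxes were read from GENCODE vM21, which has the same build.

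Members are described in order of cluster and number. Library values are given for tested members at 1 CPM or more, ranges for the others, and at most 6 genes per other list, those with the smallest adjusted p. The members and lists were chosen with earlier results of these data known. A few genes and sequences under the rule are left unreported, though all tests and counts include them.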

Additional observations from a re-analysis of the deposited data

Results flagged for a closer look

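Of 54 groups of 4 libraries examined for a library far from the other 3, 2 were flagged, where chance flags about 1 in 20. Hoxb5 in WT replicate 1 stood at 5.75 CPM (389 counts), below the other WT libraries at 6.0 to 6.02 CPM, a gap of 0.895 of the group's range. The summed RPKM of cluster D in WT replicate 2 was 0.562, above the other WT libraries at 0.466 to 0.479, a gap of 0.870 of the range. All BAP1 KO libraries held at least 6.66 CPM of Hoxb5 and at most 0.395 RPKM of cluster D, so neither library reached the values of the other genotype.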

How the results depend on the processing

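Over 15 alternatives, a Hox gene was compared with its main result 340 times. Of these comparisons, 317 kept the side of the threshold, 7 lost significance and 16 gained it. Where either result passed, 0 reversed direction. Sign was not counted where neither passed, as for Hoxa6, which went from 0.02 to -0.03 without BAP1 KO replicate 1. Of the 23 genes, 17 kept their side of the threshold in every alternative in which they were tested. Hoxa10, Hoxa11, Hoxc8, Hoxd8 and Hoxd9 were not tested with CPM above 1 in at least 4 libraries. The 10 higher calls became 8 to 10 when a library was left out, and were within 1.5 times of 10 in all other alternatives. The 7 lower calls became 7 to 11 when a library was left out, with 11 without BAP1 KO replicate 1, where Hoxb2, Hoxa9, Hoxc8 and Hoxd9 were added. They became 4 with that filter, where only 18 Hox genes were tested. With RPKM from GENCODE exon lengths, the cluster sums became 51.2 in WT and 55.9 in BAP1 KO for cluster A, 38.5 and 44.7 for cluster B, and 7.77 and 5.89 for cluster C, each in the same direction. Under those lengths Hoxb9 was rank 11 in WT and rank 4 in BAP1 KO, and Hoxa3 rank 10 in WT in place of 2. The length implied by the deposited RPKM of Hoxc6 was 4.43 times its exon length, so its level against other genes is uncertain. For Hoxa7, Hoxc4 and Hoxb3 the implied lengths were 1.99, 1.85 and 1.79 times the exon lengths. Differences between genotypes do not use these lengths, but whether the gene models behind them added reads that differ by genotype was not tested. Low counts limit Hoxa10 and Hoxa11, both called lower, as well as Hoxc8, Hoxd9 and the untested genes. No paired analysis was possible because the labels give no replicate numbers, which were assigned in accession order.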

Other observations

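Around the clusters, the 5 nearest protein-coding genes on each side of each cluster came to 40 genes, of which 34 were tested, 10 were higher, 15 lower and 9 did not pass (edgeR, adjusted p below 0.05). Among all genes, 29.0% were higher and 32.1% lower. The neighbours' median log2 fold change was -0.05, beside 0.00 over all genes. None of the 34 was higher by 1.5-fold and 5 were lower, beside 4.49% and 10.3% of all genes. Beside cluster B, where 5 of 8 tested Hox genes rose, 3 of 8 tested neighbours rose and 3 fell. Beside cluster C, 4 of 9 rose and 2 fell. Among these, Tarbp2 and Atf7 rose by 0.44 and 0.25, and Nfe2, a blood lineage factor with few reads (mean 0.273 CPM in WT, 0.046 CPM in BAP1 KO), had a log2 fold change of -2.51 ± 0.41. Beside cluster A, 1 of 9 rose and 5 fell, with Jazf1 and Creb5 both at -0.61, and beside cluster D, 2 of 8 rose and 5 fell, with Chn1 at -0.85.

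Of 20 names listed as noncoding genes of the clusters, 5 were not matched to an identifier and 1 lies on a chromosome without a Hox cluster, which left 14 in or beside the clusters. Of these, 11 were too low to test, with at most 22 counts in a library. Of the 3 tested, 2 rose (Hoxb5os and Hoxb3os), 0 fell in edgeR (0 also at an unadjusted p below 0.05, in DESeq2 and in limma-voom) and 1, Hoxaas3, did not pass. The microRNA gene Mir196a-1 (chromosome 11, 96265164 to 96265265, GRCm38) lies 6.1 kb from Hoxb9, between it and Hoxb13. Reads over it numbered 0, 5, 4 and 0 in WT and 12, 22, 9 and 7 in BAP1 KO, without overlap, and it was not tested. These libraries hold polyadenylated RNA, which leaves out mature microRNAs. The mature sequence from RefSeq is given with its seed, bases 2 to 8, in capitals, since it lies next to the Hox gene with the largest rise.

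mmu-miR-196a-5p: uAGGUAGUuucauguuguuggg

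Hoxa11os, antisense to Hoxa11 over 800 bases of its exons, had 7, 18, 14 and 14 counts in WT and 4, 2, 6 and 5 in BAP1 KO, the same direction as Hoxa11. Evx1 and Evx2, homeobox genes beside clusters A and D, had 0 counts in all 8 libraries.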
